A study of Homo sapiens with 6 samples.

Results

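The genes described here are 8 transcripts that stand for the androgen receptor axis of the prostate and for the TMPRSS2-ERG fusion: TMPRSS2, ERG, KLK2, KLK3, FKBP5, FOLH1, SLC45A3 and STEAP2. They were taken by name from the 17177 genes of an RNA-seq expression table. The rows of 6 of the 8 genes were found, and KLK2 and KLK3 were not analysed here. The cells were NCI-H660, an established human cell line of neuroendocrine prostate cancer (NEPC), a form of the disease that has lost most luminal prostate features and grows without androgen signalling. Cells received pyrvinium pamoate (PP), an anthelmintic drug, or phosphate-buffered saline (PBS) as the control, and RNA was taken on day 3 from 3 libraries of each kind. The labels give both groups the same cell line and day and a different agent, and no dose of PP for the RNA-seq was found in the sources used here. The article describes the libraries in one place as independent samples and in another as duplicates, and the labels name no separate cultures, so the p-values measure only the spread between these libraries.

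Androgen signalling switches on secretory genes of the luminal prostate cell. KLK2 and KLK3 (prostate-specific antigen) are such secreted proteases, TMPRSS2 is a protease of the luminal cell surface, and FKBP5 is a co-chaperone that both androgens and glucocorticoids induce. In many prostate cancers a rearrangement of chromosome 21 joins the androgen-driven promoter region of TMPRSS2 to the body of ERG, an ETS-family transcription factor that normal prostate epithelium hardly makes. NCI-H660 is a known carrier of this fusion.

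Of the 6 measured genes, 3 were lower with PP (ERG, TMPRSS2 and SLC45A3), 2 were higher (STEAP2 and FKBP5), and FOLH1 was at the limit of detection. The call of SLC45A3 rested on single libraries. The fall of ERG was the largest in this set on the fitted scale, from 7.48 ± 0.698 to 3.18 ± 0.275 FPKM, a read count scaled for transcript length and library size (mean ± SD, n = 3 libraries). These counts stand against a wide response. At an adjusted p under 0.05, 34.4% of the 13771 genes that averaged 0.1 FPKM or more (the wider fit) rose with PP and 32.4% fell. Among the 11726 genes that averaged 1 FPKM or more (the main fit), the shares were 38.1% and 34.4%. A share of 2 higher and 3 lower among 5 tested genes is therefore not set apart from other genes by number, and what follows is a description of each gene. Counts of related gene lists are given from both fits, because a gene can pass the filter of the main fit through the group in which it is high, and no count is read as a result about its list. In 5 of the 5 tested genes the PBS and PP libraries did not overlap, as was true of 70.8% of all genes in the wider fit.

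Depth was alike between groups. The deposited values are whole multiples of the value of 1 read, and the read counts recovered from them summed to between 29064253 and 32481171 per library. Libraries of one treatment differed from each other by a chi-square per degree of freedom of 3.37 to 7.07 over genes, and libraries of different treatments by 149.17 to 170.25. The cells carried the markers of their label: the summed FPKM of 10 neuroendocrine markers was 857 to 865 with PBS and 474 to 488 with PP, and the luminal keratins KRT8, KRT18 and KRT19 were between 137 and 626 in every library. Of the 10 neuroendocrine markers in the wider fit, 5 were lower with PP and 3 were higher, beside 32.4% and 34.4% of all genes. The basal markers KRT5, KRT14 and TP63 summed to at most 0.2 FPKM and the 5 leukocyte markers to at most 1.92 FPKM. The 5 fibroblast markers summed to 4.08 to 4.49 FPKM with PBS and 4.49 to 4.91 FPKM with PP. COL1A1, the most abundant, was 3.3 ± 0.133 and 4.16 ± 0.118 FPKM. COL1A2 was 0.769 ± 0.139 and 0.417 ± 0.185 FPKM (limma adjusted p = 0.0164, 0.0616 without PBS replicate 2 and 0.0628 without PP replicate 3). In such bulk libraries, fewer cells of a type and less RNA per cell cannot be told apart.

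Reference promoter windows are shown for 3 of the measured genes and for STEAP1, the neighbour of STEAP2, because STEAP1 and STEAP2 both rose and because ERG and FKBP5 are the members with the highest levels. Each window runs from 250 bases before to 50 bases after an annotated start (RefSeq, GRCh38.p14), written 5′ to 3′ on the gene's own strand. Of the 2 windows each of FKBP5 and STEAP2, the one that holds a searched motif is printed. Windows were found for 6 of the 8 genes, and TMPRSS2 and FOLH1 were the other two. Capitals mark the letters AGAACA or TGTTCT (a half-site of steroid hormone receptors) and CCGGAA or TTCCGG, each searched on both strands. The latter are the core that ETS factors bind together with flanking letters. The bare core GGAA without that flank was not searched and is not marked. The windows are STEAP1 at chr7:90154219-90154518 (plus strand), STEAP2 window 1 at chr7:90211490-90211789 (plus strand), FKBP5 window 2 at chr6:35728534-35728833 (minus strand) and ERG window 4, the most upstream annotated start, at chr21:38660618-38660917 (minus strand).
STEAP1: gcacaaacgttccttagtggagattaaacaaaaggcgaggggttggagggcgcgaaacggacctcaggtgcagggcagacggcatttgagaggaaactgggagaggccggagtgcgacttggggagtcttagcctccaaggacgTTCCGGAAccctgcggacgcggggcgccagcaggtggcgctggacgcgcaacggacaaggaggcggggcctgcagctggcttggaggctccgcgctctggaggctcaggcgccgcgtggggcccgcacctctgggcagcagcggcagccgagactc
STEAP2 window 1: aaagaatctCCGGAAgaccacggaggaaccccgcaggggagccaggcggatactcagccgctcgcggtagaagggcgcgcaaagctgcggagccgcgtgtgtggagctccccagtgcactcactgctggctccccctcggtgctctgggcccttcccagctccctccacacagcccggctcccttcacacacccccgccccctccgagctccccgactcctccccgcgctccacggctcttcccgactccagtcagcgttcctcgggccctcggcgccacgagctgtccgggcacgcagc
FKBP5 window 2: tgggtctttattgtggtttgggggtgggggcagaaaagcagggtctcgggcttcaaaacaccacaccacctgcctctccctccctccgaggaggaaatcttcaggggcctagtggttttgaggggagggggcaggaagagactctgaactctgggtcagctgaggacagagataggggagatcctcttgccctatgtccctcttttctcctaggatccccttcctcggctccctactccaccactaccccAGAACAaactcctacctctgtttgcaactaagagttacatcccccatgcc
ERG window 4: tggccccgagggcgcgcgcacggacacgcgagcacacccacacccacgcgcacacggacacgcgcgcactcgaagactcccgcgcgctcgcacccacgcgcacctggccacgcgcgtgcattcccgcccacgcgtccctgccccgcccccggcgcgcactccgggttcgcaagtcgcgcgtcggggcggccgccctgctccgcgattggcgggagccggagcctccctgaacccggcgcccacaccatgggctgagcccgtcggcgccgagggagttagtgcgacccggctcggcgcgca

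The STEAP1 window holds the ETS letters once on each strand at positions 145 and 147, which overlap, and STEAP2 window 1 holds them at position 10. These letters occur in 17.2% of all 35116 windows of this length. FKBP5 window 2 holds AGAACA at position 251, the first base of the annotated transcript, and KLK3 holds it at position 81. This motif is found in 14.8% of all windows. The motif TGATGNAA or TTNCATCA, which is bound by stress-responsive ATF and C/EBP pairs and present in 3.62% of windows, was in none of the windows of the 6 genes or of STEAP1. FKBP5 window 1, STEAP2 window 2, the 4 windows of ERG and the windows of SLC45A3 and KLK2 held none of the motifs. These are descriptions of letters in a reference sequence, and no binding was measured.

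Factors that open chromatin at prostate genes were present at very unequal levels. FOXA1, a pioneer factor of luminal and neuroendocrine cells, was 76.8, 73.3 and 72.3 FPKM with PBS and 60.0, 62.4 and 61.8 FPKM with PP, a fall of 1.21-fold (limma, log2 fold change -0.27, SE 0.04, adjusted p = 7.88e-05). GATA2 was 19.2 ± 0.743 and 19.9 ± 0.702 FPKM and did not pass the test. HOXB13, the prostate-identity homeobox factor, was 0.0583 ± 0.0402 and 0.0318 ± 0.0189 FPKM, from 25 reads over the 6 libraries.

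TMPRSS2, the transmembrane serine protease that gives the fusion its promoter (ENSG00000184012, GRCh37 chr21:42836227-42903043, minus strand), was measured at low levels. Its FPKM was 0.77, 1.01 and 1.27 in the PBS libraries and 0.502, 0.566 and 0.308 in the PP libraries. All 3 PP libraries were below all 3 PBS libraries, and the means of 1.02 ± 0.252 and 0.459 ± 0.134 differed by 2.22-fold. The reads behind these values were 85, 106 and 142 with PBS and 55, 61 and 36 with PP, or 333 (95% exact Poisson interval 298 to 371) and 152 (129 to 178) in sum, an interval that covers counting error only. On the log2(FPKM + 1) scale used for testing, the change was -0.47 (SE 0.10), with an adjusted p of 0.0029 by limma in the wider fit. This scale compresses low values. With a pseudocount of 0.1 the same change was -1.01, and with the recovered counts in limma-voom it was -1.17. Among all genes, the PBS mean of TMPRSS2 stood above 31.9% of genes and its PP mean above 27.8%.

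ERG (ENSG00000157554, GRCh37 chr21:39751949-40033704, minus strand) was several times as abundant as TMPRSS2. It was 8.28, 7.09 and 7.06 FPKM with PBS and 3.30, 2.86 and 3.36 FPKM with PP. The groups were far apart relative to their spread, and the highest PP library was less than 0.5 of the lowest PBS library. The fall was 2.35-fold (log2 fold change -1.02, SE 0.07, limma adjusted p = 8.11e-07) and stayed between -1.06 and -0.95 when each library was left out in turn. On the log2(FPKM + 1) scale, ERG was the 1 gene of the set past the cutoff that the study set for its own lists (P under 0.001 and a log2 change beyond 1), and in the direction of a fall 2.93% of the 11726 genes passed it. This depended on the scale and on single libraries. ERG was at -0.95 without PBS replicate 1 and at -0.97 without PP replicate 2, and by limma-voom TMPRSS2 (-1.17, adjusted p = 0.000732) and STEAP2 (1.18, adjusted p = 1.21e-08) were past the cutoff too. The level of ERG went from above 57.7% of all genes to above 43.0%. A gene-level FPKM sums all transcripts of the gene, so reads of the fusion and of an unrearranged ERG copy cannot be told apart here.

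The proportion of the fusion partners did not differ beyond the spread between libraries. The ratio of ERG to TMPRSS2 FPKM was 10.8, 6.99 and 5.54 in the PBS libraries and 6.58, 5.05 and 10.9 in the PP libraries. The ranges overlapped almost fully, with means of 7.76 ± 2.7 and 7.52 ± 3.04 (no test was run). TMPRSS2 had only 36 to 142 reads per library, so a shift of the ratio within this wide spread could not be seen. ERG is also a gene of endothelial cells. The endothelial markers PECAM1, TIE1 and CLDN5 were at or below 0.0277 FPKM in every library, while CDH5 was 3.6 ± 0.332 FPKM with PBS and 2.52 ± 0.254 with PP (log2 fold change -0.39, limma adjusted p = 0.00112). VWF was 0.812 ± 0.0911 and 0.579 ± 0.106 FPKM (-0.20 in the wider fit, adjusted p = 0.036). The adjusted p of VWF was 0.0972 without PBS replicate 1, 0.0999 without PBS replicate 3, 0.0672 without PP replicate 1 and 0.124 without PP replicate 3. The 5 endothelial markers summed to 4.28 to 4.69 FPKM with PBS and 2.97 to 3.39 with PP, and their part in the change of ERG was not tested.

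As a description over the 6 libraries, the genes whose log2 levels ran closest to TMPRSS2 were GIPC1 (Pearson r = 0.9956), RTEL1 (0.9936) and KCNC4 (0.9934), out of 178 genes with r of at least 0.95. For ERG they were PIGR (0.9994), AURKA (0.9994) and SLC35E2A (0.9993), out of 1975 such genes. The points share their libraries and the difference between treatments.

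ERG and TMPRSS2 lie 2802522 bases apart on chromosome 21 in GRCh37, on the same strand, and the fusion can arise by deletion of the segment between them on one copy. Among the 15 listed genes of this segment, those called went in both directions. Of the 8 with a mean FPKM of at least 1, 5 were lower and 3 were higher with PP, beside 34.4% and 38.1% of all genes, with a median log2 fold change of -0.23 against 0.02 over all genes tested. SH3BGR was among these through its PP level. In the wider fit 6 of 12 were lower and 4 were higher, beside 32.4% and 34.4% of all genes. PCP4, a small calmodulin-binding protein of neurons, was 165, 142 and 158 FPKM with PBS and 22.7, 26.4 and 24.1 FPKM with PP. It fell by 6.35-fold (log2 fold change -2.62, SE 0.06, limma adjusted p = 3.76e-10). BACE2, a membrane protease, was 3.31 ± 0.275 and 1.65 ± 0.517 FPKM (log2 fold change -0.72), and FAM3B, a secreted protein of pancreatic islets, was 6.66 ± 0.307 and 4.82 ± 0.346 FPKM (-0.40). SH3BGR rose from 0.865 ± 0.145 to 2.74 ± 0.319 FPKM (1.0, adjusted p = 3.12e-06), and PSMG1, a proteasome assembly chaperone, rose from 7.6 ± 0.657 to 11.5 ± 0.122 FPKM (0.54).

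Among genes of the segment below 1 FPKM, DSCAM, a neuronal adhesion molecule, was 0.267, 0.29 and 0.175 FPKM with PBS and 0.0759, 0.0501 and 0.0533 with PP. It fell by 4.08-fold (log2 fold change -0.23 in the wider fit, limma adjusted p = 0.00932). DSCAM passed the filter of that fit through its PBS level. LCA5L rose by 2.49-fold, from 0.128 ± 0.0222 to 0.319 ± 0.0421 FPKM (0.23, adjusted p = 0.00815). HMGN1, a nucleosome-binding protein, was 27.8 ± 0.823 FPKM with PBS and 24.5 ± 1.45 with PP (log2 fold change -0.18), and BRWD1 was 1.74 ± 0.0916 and 2.16 ± 0.148 (0.20). GET1 was called lower at -0.27 (adjusted p = 0.033), although 1 of its PP libraries, at 2.7 FPKM, lay within the PBS range. Its limma adjusted p was 0.103 without PBS replicate 2, 0.0703 without PBS replicate 3, 0.101 without PP replicate 1 and 0.126 without PP replicate 2. For BRWD1 it was 0.0588 without PBS replicate 1, 0.0526 without PBS replicate 2 and 0.0685 without PP replicate 3, so both calls rested on single libraries. ETS2, the ETS gene next to ERG, had 7 reads in each group in all. MX1, an interferon-induced antiviral GTPase, overlaps the end of TMPRSS2 by 5772 bases on the opposite strand, and was 0.389 ± 0.12 and 0.559 ± 0.0684 FPKM (log2 fold change 0.17, adjusted p = 0.0795). Whether the read counting used strand was not given in the sources used here, so reads in the overlap may belong to either gene. Outside the segment, 8 of 12 listed neighbours were tested, of which 4 were higher and 3 were lower, beside 38.1% and 34.4% of all genes. In the wider fit 4 of 10 were higher and 4 were lower, beside 34.4% and 32.4% of all genes. The called neighbours ran from RIPK4, a kinase of epithelial differentiation (22.3 ± 1.2 and 7.78 ± 0.927 FPKM, log2 fold change -1.42), to HLCS (4.14 ± 0.172 and 8.09 ± 0.316 FPKM, 0.82).

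**Figure D1:**
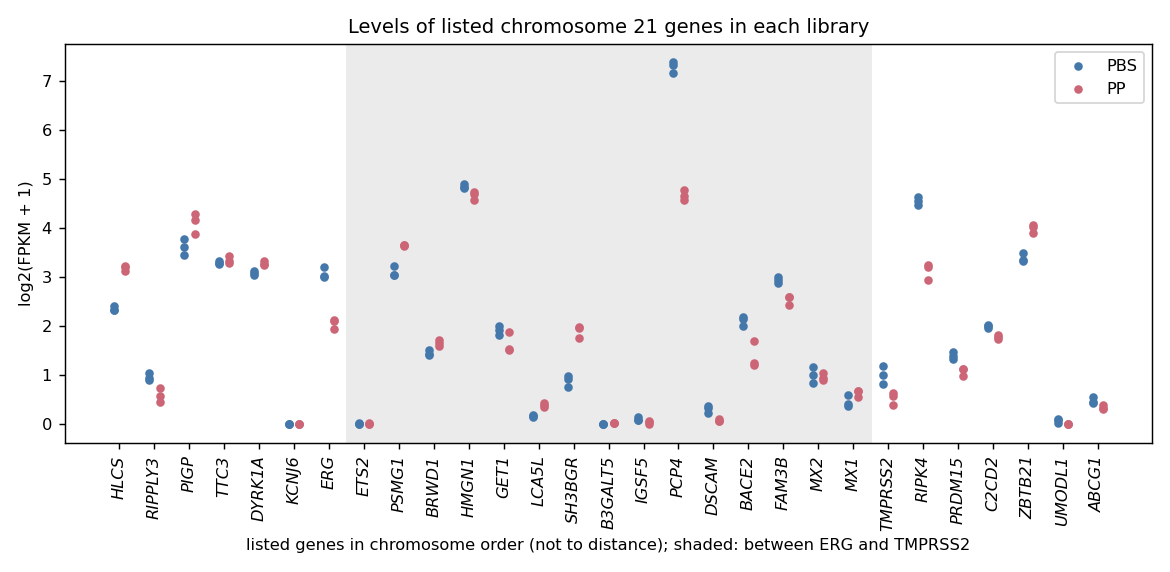
Level of each listed chromosome 21 gene as log2(FPKM + 1) in the 3 PBS (blue) and 3 PP libraries (red), with genes in chromosome order and the segment between ERG and TMPRSS2 shaded. Falls (PCP4, BACE2) and rises (SH3BGR, PSMG1) lie side by side within the segment.

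ERG belongs to the ETS family, which shares one DNA-binding domain. Of 28 listed ETS factors, 15 were tested in the main fit. With PP 6 of the 15 were higher and 4 were lower, beside 38.1% and 34.4% of all genes, with a median log2 fold change of 0.07. In the wider fit 6 of 19 were higher and 6 were lower, beside 34.4% and 32.4% of all genes. ETS1 was 1.45, 1.23 and 1.19 FPKM with PBS and 3.78, 3.35 and 4.06 FPKM with PP. Every PP library was above every PBS library, so ETS1 rose by 2.89-fold (log2 fold change 1.04, limma adjusted p = 9.65e-07) while ERG fell, and the PP means of the 2 genes were 3.73 ± 0.356 and 3.18 ± 0.275 FPKM. FLI1, the closest relative of ERG, had 6 reads over the PBS libraries and none over the PP libraries. ETV6, a repressor, was 6.03 ± 0.443 and 3.82 ± 0.373 FPKM (log2 fold change -0.55), and EHF, an epithelial factor, was 2.53 ± 0.0822 and 3.7 ± 0.198 FPKM (0.41). ETV1, which is rearranged in other prostate cancers, was 0.837 ± 0.106 and 1.29 ± 0.142 FPKM (0.32, limma adjusted p = 0.00465). It passed the filter of the main fit through its PP level.

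Of 19 genes that are linked to ERG fusions in prostate tumours, 14 were tested. With PP 8 were lower and 3 were higher, or 57.1% and 21.4%, against 34.4% and 38.1% over all genes, and their median log2 fold change was -0.37. In the wider fit 9 of 16 were lower and 3 were higher, beside 32.4% and 34.4% of all genes. PLAU, the urokinase protease of the plasminogen system, was 128, 127 and 130 FPKM with PBS and 56.8, 56.5 and 54.1 FPKM with PP. It fell by 2.3-fold (log2 fold change -1.19, SE 0.03, limma adjusted p = 8.51e-10). KCNS3, a potassium channel subunit, fell from 20.9 ± 0.415 to 11.2 ± 0.639 FPKM (-0.85). VIM, the mesenchymal filament vimentin, rose from 9.37 ± 0.608 to 14.2 ± 0.593 FPKM (0.55), and PEX10, a peroxisome protein, rose from 15.5 ± 0.962 to 20.3 ± 1.0 FPKM (0.37). TDRD1, a germline protein often taken as a marker of ERG fusion, was 5.64 ± 0.88 and 5.34 ± 0.334 FPKM and did not pass the test (log2 fold change -0.06, SE 0.09, adjusted p = 0.588).

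FKBP5 (ENSG00000096060, GRCh37 chr6:35541362-35696360, minus strand) encodes an HSP90 co-chaperone that tunes steroid receptors. It was 7.87, 8.10 and 7.60 FPKM with PBS and 9.29, 9.94 and 9.23 FPKM with PP. The groups did not overlap, but the step was small, at 1.21-fold (log2 fold change 0.24, SE 0.05, limma adjusted p = 0.00149), and lay between 0.21 and 0.26 with each library left out. It was the most abundant of the 6 measured genes in both groups, although its PBS mean of 7.86 ± 0.247 did not differ from the 7.48 ± 0.698 of ERG beyond their spread. FKBP4, the related co-chaperone that aids hormone binding, moved by about as much, from 25.4 ± 1.03 to 31.4 ± 1.94 FPKM (0.29). The ratio of FKBP4 to FKBP5 was 3.24 ± 0.234 with PBS and 3.32 ± 0.258 with PP.

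Called members of the FKBP family went in both directions. Of 12 tested members 3 were higher (25.0%, against 38.1% of all genes), 4 were lower (33.3%, against 34.4%) and 5 were not called. In the wider fit 3 of 14 were higher and 5 were lower, beside 34.4% and 32.4% of all genes. FKBP1A, the receptor of tacrolimus, fell from 95.3 ± 0.44 to 55.9 ± 0.264 FPKM (log2 fold change -0.76), and FKBP9, an endoplasmic reticulum isomerase, from 25.7 ± 0.687 to 17.7 ± 0.11 FPKM (-0.51). FKBP11, of the same compartment, rose from 2.59 ± 0.318 to 5.03 ± 0.727 FPKM (0.74). The chaperones that FKBP5 works with were lower: HSP90AA1 went from 945 ± 30.5 to 695 ± 20.3 FPKM (log2 fold change -0.44), and HSP90AB1 from 950 ± 21.5 to 702 ± 8.1 FPKM (-0.44).

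FKBP5 is also a target of the glucocorticoid receptor. NR3C1, the gene of that receptor, was 4.35, 4.46 and 4.28 FPKM with PBS and 7.32, 6.89 and 7.54 FPKM with PP, and rose by 1.66-fold (log2 fold change 0.62, limma adjusted p = 2.88e-06). NR3C2, the mineralocorticoid receptor, rose by 1.81-fold (0.68). Of 18 genes that share glucocorticoid induction with FKBP5, 16 were tested. With PP 6 of the 16 were higher and 8 of the 16 were lower, beside 38.1% and 34.4% of all genes, with a median of -0.16. In the wider fit 6 of 17 were higher and 8 were lower, beside 34.4% and 32.4% of all genes. KLF15 rose from 1.72 ± 0.103 to 5.91 ± 0.49 FPKM (1.34), and DUSP1, a phosphatase of MAP kinases, from 10.4 ± 0.306 to 20.1 ± 1.43 FPKM (0.89). SGK1, a kinase of ion transport, fell from 13.3 ± 0.487 to 5.07 ± 0.173 FPKM (-1.24), and CRISPLD2, a secreted protein, from 10.2 ± 0.238 to 4.0 ± 0.0845 FPKM (-1.17). TSC22D3, the leucine zipper that glucocorticoids induce in most cells, rose from 3.38 ± 0.214 to 5.34 ± 0.387 FPKM (0.53). The list thus held large changes in both directions around the small rise of FKBP5.

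STEAP2 (ENSG00000157214, GRCh37 chr7:89796904-89867451, plus strand) is a metalloreductase of prostate cell membranes that reduces iron and copper for uptake. It was 0.806, 0.66 and 0.651 FPKM with PBS and 1.58, 1.45 and 1.75 FPKM with PP. The lowest PP library lay well above the highest PBS library, and the means of 0.705 ± 0.0874 and 1.59 ± 0.15 differed by 2.26-fold. The reads were 585 and 1354 in sum, and the log2 fold change was 0.60 (SE 0.08, limma adjusted p = 5.34e-05), or 1.07 with a pseudocount of 0.1. STEAP2 passed the filter of the main fit through its PP level. In the wider fit, which it passed in both groups, the change was 0.60 (limma adjusted p = 4.78e-05). Its percentile among all genes went from 29.5 to 36.0.

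STEAP1 is a family member used as a cell-surface target in prostate cancer. By the GENCODE coordinates it ends 2.8 kb before STEAP2 on the same strand (ENSG00000164647, GRCh37 chr7:89783770-89794143). The RefSeq start of the printed STEAP2 window lies farther from STEAP1. STEAP1 was 0.636, 0.895 and 1.02 FPKM with PBS and 2.97, 3.37 and 4.28 FPKM with PP. The rise was 4.15-fold (log2 fold change 1.29, SE 0.11, limma adjusted p = 3.2e-06), in the same direction as STEAP2. STEAP1 too passed the filter of the main fit through its PP level. The ratio of STEAP1 to STEAP2 FPKM was 0.788, 1.36 and 1.57 with PBS and 1.88, 2.32 and 2.45 with PP, so the ranges did not overlap, and this difference was not tested. STEAP3, the ferrireductase of the transferrin cycle, was the most abundant of the family and moved the other way, from 20.7 ± 0.549 to 11.5 ± 0.54 FPKM (-0.80, adjusted p = 1.71e-07). STEAP1B, a near copy of STEAP1 whose reads the counting may have split, was 0.331 ± 0.19 and 0.217 ± 0.151 FPKM and did not pass the test.

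SLC45A3 (prostein, ENSG00000158715, GRCh37 chr1:205626979-205649637, minus strand) is a sugar transporter-like protein of the prostate and itself an occasional fusion partner of ETS genes. It was 0.438, 0.764 and 0.538 FPKM with PBS and 0.269, 0.312 and 0.414 FPKM with PP. The highest PP library lay just under the lowest PBS library. The means of 0.58 ± 0.167 and 0.332 ± 0.0744 differed by 1.75-fold, from 179 (154 to 207) and 106 (86.8 to 128) reads in sum. The log2 fold change was -0.24 (SE 0.09, limma adjusted p = 0.0307), and the call rested on single libraries. Without PBS replicate 2 it was -0.16 (adjusted p = 0.107), without PBS replicate 3 -0.26 (0.0501), without PP replicate 1 -0.21 (0.091) and without PP replicate 2 -0.23 (0.078). Its relative SLC45A4 was far more abundant and fell from 11.3 ± 0.535 to 6.42 ± 0.208 FPKM (-0.73), while SLC45A1 was 0.602 ± 0.0989 and 0.6 ± 0.106 FPKM.

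FOLH1 (prostate-specific membrane antigen, ENSG00000086205, GRCh37 chr11:49166644-49230190, minus strand) is the carboxypeptidase to which imaging agents and radioligands for prostate cancer bind. It had 0, 0 and 4 reads in the PBS libraries and 0, 0 and 1 in the PP libraries. With 5 reads over all 6 libraries no fold is given. A level of 3 reads would be at most 0.0233 FPKM, and a difference near or below that level was not detectable at this depth. TFRC, the transferrin receptor of the same protein fold, was 62.9 ± 2.6 and 55.8 ± 1.13 FPKM (log2 fold change -0.17, limma adjusted p = 0.00302).

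KLK2 and KLK3 lie side by side on chromosome 19 and were not analysed here, but 10 other kallikrein genes had rows. KLK11 was 43.8, 38.0 and 40.6 FPKM with PBS and 17.0, 18.0 and 14.1 FPKM with PP. It was the most abundant kallikrein measured and fell by 2.49-fold (log2 fold change -1.27, SE 0.08, limma adjusted p = 3.13e-07). Its neighbour KLK12 fell from 3.32 ± 0.122 to 1.42 ± 0.374 FPKM (-0.85). KLK14 was 0.62, 0.699 and 0.307 FPKM with PBS and 1.19, 0.805 and 1.15 with PP, a rise of 0.41 in the wider fit (adjusted p = 0.00871). KLK4, the androgen-responsive kallikrein of the prostate, had 1 read in each group. Of the 10 kallikreins measured, the levels of the remaining 6 were at or below 0.0716 FPKM in every library.

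The relatives of TMPRSS2, the type II transmembrane serine proteases, were led in level by ST14 and TMPRSS13. Of 18 listed, 7 were tested in the wider fit, where 5 were lower and 1 was higher with PP, beside 32.4% and 34.4% of all genes. The main fit held 4 of them, of which TMPRSS4 and TMPRSS6 were above 1 FPKM with PBS only, so a count within that fit is not read. TMPRSS13 was 26.9, 28.1 and 28.1 FPKM with PBS and 4.09, 3.74 and 4.09 FPKM with PP, a fall of 6.97-fold (log2 fold change -2.53, SE 0.05, limma adjusted p = 1.07e-10). ST14 (matriptase), an epithelial protease, fell from 109 ± 3.37 to 47.2 ± 2.38 FPKM (-1.19), TMPRSS6 from 2.32 ± 0.158 to 0.64 ± 0.0535 (-1.02) and TMPRSS4 from 2.27 ± 0.226 to 0.887 ± 0.126 (-0.79). In the wider fit TMPRSS2 was lower too, TMPRSS5 was not called (0.417 ± 0.19 and 0.226 ± 0.0462 FPKM), and TMPRSS9 was higher, from 0.109 ± 0.0473 to 0.588 ± 0.0501 FPKM (0.52, adjusted p = 6.74e-05). HPN (hepsin), which prostate adenocarcinomas overexpress, had 2 reads with PBS and 16 with PP.

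**Figure D2:**
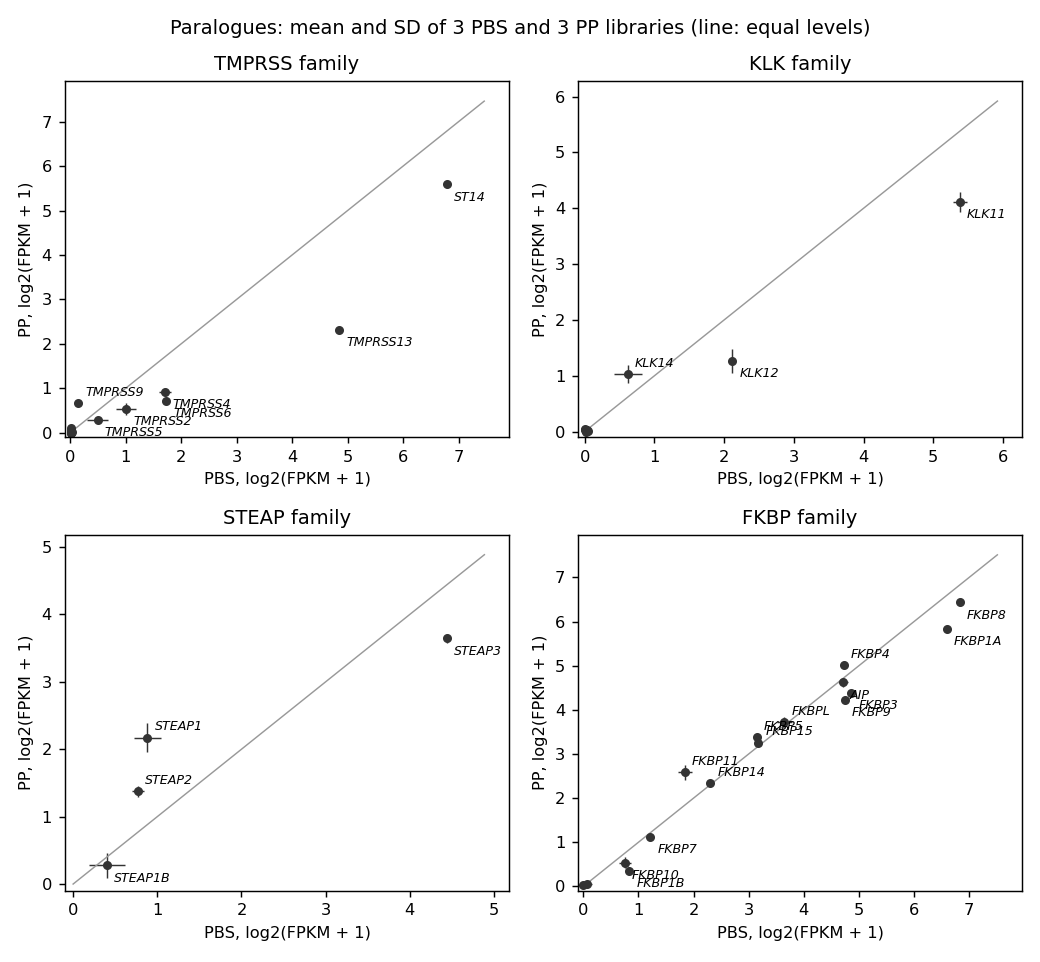
Mean log2(FPKM + 1) with PBS (x axis) against PP (y axis) for each gene of the TMPRSS, KLK, STEAP and FKBP families, with the SD of 3 libraries as bars and the line of equal levels. TMPRSS13, ST14, KLK11 and STEAP3 lie below the line, STEAP1 and STEAP2 above it, and FKBP genes mostly near it.

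Beyond these families, 69 androgen response genes were listed. Of 43 tested, 17 were higher and 17 were lower with PP, 39.5% each against 38.1% and 34.4% of all genes, with a median of 0.00 against 0.02. In the wider fit 18 of 52 were higher and 22 were lower, beside 34.4% and 32.4% of all genes. ZMIZ1, a SUMO-ligase-like coactivator, fell from 84.1 ± 0.39 to 32.8 ± 0.593 FPKM (log2 fold change -1.33). STEAP1 had the largest rise in this list, followed by ZBTB10, a zinc finger repressor, from 8.48 ± 0.519 to 20.7 ± 0.975 FPKM (1.20). ACP3, prostatic acid phosphatase, was 0.829, 0.884 and 0.805 FPKM with PBS and 0.23, 0.234 and 0.224 with PP, a 3.66-fold fall (-0.58 in the wider fit, limma adjusted p = 1.65e-05).

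Of 21 tested genes among the pioneer factors and cofactors, 11 were higher and 4 were lower with PP, with a median of 0.14. These were 52.4% and 19.0%, against 38.1% and 34.4% over all genes. The wider fit held the same counts, beside 34.4% and 32.4% of all genes. Single libraries moved the counts: without PBS replicate 3, 8 of the 21 were higher and 5 were lower, beside 4154 and 3775 of all 11726 genes. NCOA3, a steroid receptor coactivator, rose from 12.6 ± 0.519 to 18.4 ± 1.5 FPKM (log2 fold change 0.51, limma adjusted p = 2.69e-05).

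Of the genes of steroid handling, 5 of 11 in the main fit were higher and 5 were lower, beside 38.1% and 34.4% of all genes. In the wider fit 6 of 15 were higher and 5 were lower, beside 34.4% and 32.4% of all genes. AKR1C2, which reduces dihydrotestosterone, rose from 0.863 ± 0.18 to 3.24 ± 0.173 FPKM (log2 fold change 1.19, limma adjusted p = 5.4e-07). It passed the filter of the main fit through its PP level. Its near-identical relative AKR1C1, with which it can share reads, was 0.15 ± 0.0763 and 0.624 ± 0.173 FPKM. HSD11B2, which inactivates cortisol, fell from 17.0 ± 1.32 to 9.1 ± 0.761 FPKM (-0.84), and HSD17B6, an enzyme of androgen metabolism, from 13.0 ± 0.913 to 9.29 ± 1.02 FPKM (-0.45).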

How the data were processed

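The deposited table held 1 FPKM value per gene and library, which the authors made from their reads. The submitters' processing notes name fastp, HISAT2, HTSeq and GRCh38, whereas the article's methods describe another aligner and hg19. Which build underlies the table was not settled, so gene coordinates are given from GENCODE in GRCh37 and promoters from RefSeq in GRCh38.p14. Here log2(FPKM + 1) was fitted with limma 3.58.1 (R 4.3.3, empirical Bayes with trend, PP against PBS, 3 libraries each) over the 11726 genes that averaged 1 FPKM or more, and Benjamini-Hochberg adjusted p under 0.05 was called. Genes below this filter were taken from the same fit with the filter at 0.1 FPKM (13771 genes). Whole reads were recovered for 17177 genes (100.0%, within 0.01 read) and used for depth, for Poisson intervals and for limma-voom. The code was tested on simulated data. Members and lists were chosen with earlier results of these data known. Named were the 8 genes, the 2 highest and 2 lowest called genes of each list, the 21q22, KLK, STEAP and TMPRSS genes, and for TMPRSS2 and ERG the 3 genes of most similar pattern. Other names (FOXA1, GATA2, HOXB13, FKBP4, HSP90AB1, NR3C1, NR3C2, ETV1, TDRD1, TSC22D3, ACP3, AKR1C1, SLC45A1, FLI1 and markers) were chosen after their values were seen, and some genes are not reported here. Alternatives were another pseudocount, filter and scaling, limma-voom, a replicate block and leaving out each library.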

Additional observations from a re-analysis of the deposited data

How the results depend on the processing

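Of the recomputed values, 499 kept their direction and call or stayed within 1.5 times of the main count, and none reversed. Of those from leaving out one library, 206 did so, and the other 4 concerned SLC45A3, whose log2 fold change ranged from -0.31 to -0.16 and whose adjusted p ranged from 0.0138 to 0.107. The remaining 17 were counts that moved because more or fewer genes were tested. With the filter at 5 FPKM, the genes of the set called higher and lower were 1 each, steroid genes higher 3, KLK genes lower 1, STEAP genes higher 0 by limma (STEAP1 and STEAP2 were not tested), TMPRSS genes lower 2, ETS factors higher 3, genes between ERG and TMPRSS2 higher 1 and lower 3, flanking genes lower 1 and glucocorticoid-responsive genes higher 2. With a filter of 0.1 or none, KLK and TMPRSS genes higher were 1 each, and with none SLC45 and FOLH1 relatives lower were 4 and flanking genes lower were 6. Libraries of the same number did not deviate together (correlations of deviations -0.211, -0.014 and -0.127 for replicates 1, 2 and 3), and 0 of the 6 libraries correlated best with the library of its own number in the other group. A replicate block gave 4260 genes higher and 3878 lower, against 4464 and 4032, and changed no call among the 5 tested genes. The low read counts of TMPRSS2, SLC45A3 and FOLH1 limit their precision, and changes of such genes are understated on the log2(FPKM + 1) scale.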
